A study of Arabidopsis thaliana with 9 samples.

Results

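Transcripts of se-2 seedlings were set against those of wild type (WT) seedlings of Arabidopsis thaliana, and they comprised 3 arrays of se-2 and 3 of WT, taken by their sample titles from the 9 arrays of the series. The se-2 seedlings carry a mutant allele of SERRATE, and the WT seedlings are the accession Col-0. Both were harvested at 2 weeks of age from solid MS medium in long days. The other 3 arrays, of the cbp20 cbp80 double mutant, entered the scaling, the choice of probes to test and the estimates of spread and slide correlation. Their own levels and changes are not given. Each array carried 15013 Cy3 probes for 5154 transcripts, which fall into 3 main classes by the prefix of their names: 173 miRNA precursors, 4499 transcription units, known only by TU names, and 479 transcripts of 405 named loci. A transcript was tested where the scanner software marked a probe as well above background on every array of some genotype, which held for 1724 of the 5154.

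MicroRNA (miRNA) genes are transcribed into long primary transcripts that fold into hairpins. In the plant nucleus DCL1, a Dicer enzyme, cuts these hairpins together with HYL1, a double-stranded RNA-binding protein, and SERRATE, a zinc finger protein, and the released miRNA then guides an ARGONAUTE protein to target mRNAs. SERRATE also acts with the nuclear cap-binding complex in mRNA splicing. A precursor probe reads any RNA that holds its sequence, so it does not separate uncut transcripts from cut stem-loops, and mature miRNAs were not analysed here.

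Levels below are scaled log2 signals: 0 is the 75th percentile of an array's signals among the 1835 probes that all 9 arrays detected, and a change is se-2 minus WT, with the standard error (SE) of the limma fit and n = 3 arrays per genotype. The number of probes well above background was 3404, 3286 and 3563 on the se-2 arrays, against 2192, 3711 and 3147 on the WT arrays. Arrays correlated with each other at 0.994 to 0.996 in se-2 and at 0.903 to 0.943 in WT across the tested probes, and the median SD of a probe was 0.0858 in se-2 and 0.545 in WT. The 3 se-2 arrays lay on 1 slide with 1 scan, while every WT array had a separate slide, so slide and genotype cannot be told apart. The slide was a random block in the fit, which allows for spread between slides and leaves the p-values open to being too small, since degrees of freedom were counted over arrays. Arrays carried no probe named for SERRATE, so the mutation itself was not checked, and the labels name whole seedlings, in which a larger share of the cells of a type and more RNA per cell cannot be told apart.

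Precursors of miRNAs were the class with most calls. Among the 126 tested, se-2 seedlings had a higher level of 67 and a lower level of 1, and 58 missed the threshold. A call needs an adjusted p (Benjamini-Hochberg, two-sided) under 0.05 in limma's test of 3103 probes. Over all 1724 transcripts 94 were higher (5.45%) and 23 lower (1.33%), so that 67 of the 94 transcripts that rose were precursors. The median change of the tested precursors was 2.77, a 6.82-fold higher level in se-2, and 2.31 with the 24 that were well above background on no WT array set at their bounds. The size of this median depended on the processing. Normexp background correction was run on median spot signals with an offset of 50. It gave a median of 0.16 under percentile scaling, with 52 precursors higher and 16 lower. With quantile normalization it gave 0.77, with 56 higher and 2 lower. Which of these steps moved the median was not tested. The median of the 1168 tested transcription units was -0.01, and that of the 430 tested named-locus transcripts was -0.19. All 3 se-2 arrays lay above all 3 WT arrays for 100 precursors, against 23.0% of all tested transcripts, and below them for 8, against 26.5%. Since 61 of the 126 precursors passed the filter only through the se-2 arrays, the 65 that were well above background on all se-2 and WT arrays are given apart: 36 rose, 1 fell, and the median change was 2.04. Without WT replicate 2 the calls over all transcripts came to 155 higher and 64 lower, without WT replicate 3 to 144 and 79, and without the slide in the model to 310 (18.0%) and 341 (19.8%).

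**Figure D1:**
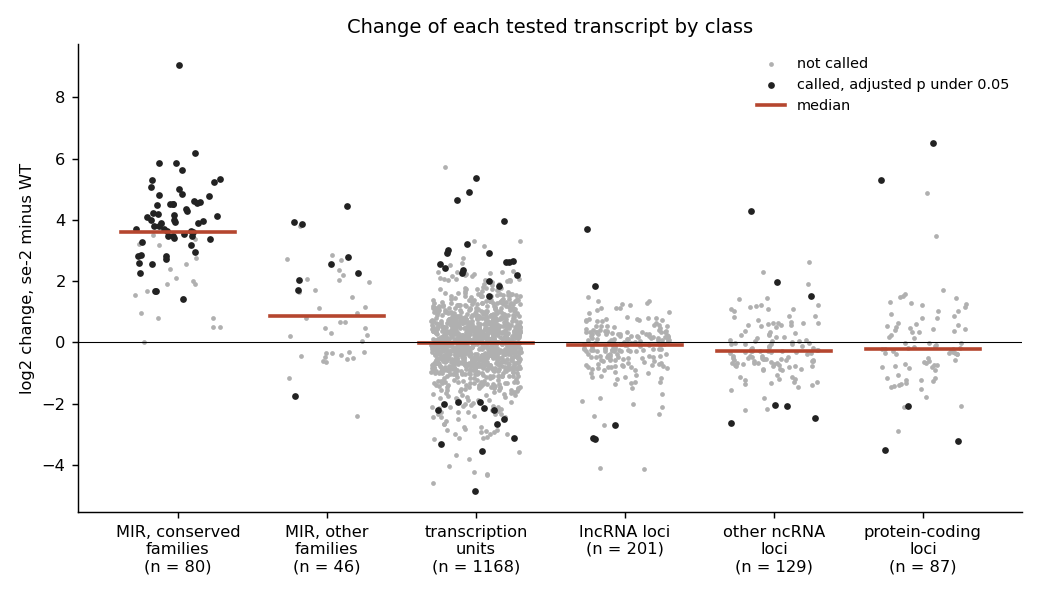
Change of each tested transcript in se-2 minus WT (log2, vertical axis) by class, with called transcripts in black, others in grey and the median of the class as a red line. The conserved MIR families sit above 0 with a median of 3.61, other MIR families have a median of 0.87, and the medians of the remaining classes lie between -0.29 and -0.01.

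The gap between precursors and transcription units did not rest on any WT array alone. The median change of precursors exceeded that of transcription units by 2.78 against the WT mean. Against WT replicates 1, 2 and 3 taken singly, this difference was 2.64, 3.06 and 2.82. WT replicate 3 was read with the same version of the scanner software as the se-2 arrays but with another protocol. The part of software and protocol in these values was not tested. Ranks within an array, which need no scaling between arrays, put precursor probes higher in se-2. The median precursor probe stood at the 88.3rd to 88.5th percentile of its array in se-2 and at the 68.4th to 72.6th in WT. Transcription unit probes had median percentiles of 45.0 to 45.1 in se-2 and 45.4 to 45.6 in WT. They are 13245 of the 15013 ranked probes, which holds their median near these values, so it tells nothing of their change.

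The detection flag, which also needs no scaling, separated the genotypes for precursors. On the se-2 arrays 134, 131 and 130 of the 173 precursors had a probe well above background, against 67, 95 and 90 on the WT arrays. The se-2 arrays thus detected more precursors than any WT array did, although WT replicate 2 had the most probes well above background of all 6 arrays. Detection on all se-2 arrays and no WT array was found for 23 precursors (13.3% of 173), against 98 transcription units (2.18% of 4499) and 3 named-locus transcripts, and the count of precursors was 38 without WT replicate 2. The reverse, all WT arrays and no se-2 array, held for 0 precursors, 17 transcription units and 2 named-locus transcripts. Of the 23 precursors, 14 were of conserved families, among them MIR172a and MIR172b, MIR319a, MIR390b, MIR395c and MIR395f, MIR399a and MIR399e, and MIR827. The 9 others were MIR158b, MIR173, MIR400, MIR773, MIR781, MIR843, MIR858, MIR870 and MIR2111a. More se-2 than WT arrays detected 71 precursors, and more WT than se-2 arrays detected 3, MIR397b, MIR426 and MIR847, each on 1 WT array.

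**Figure D2:**
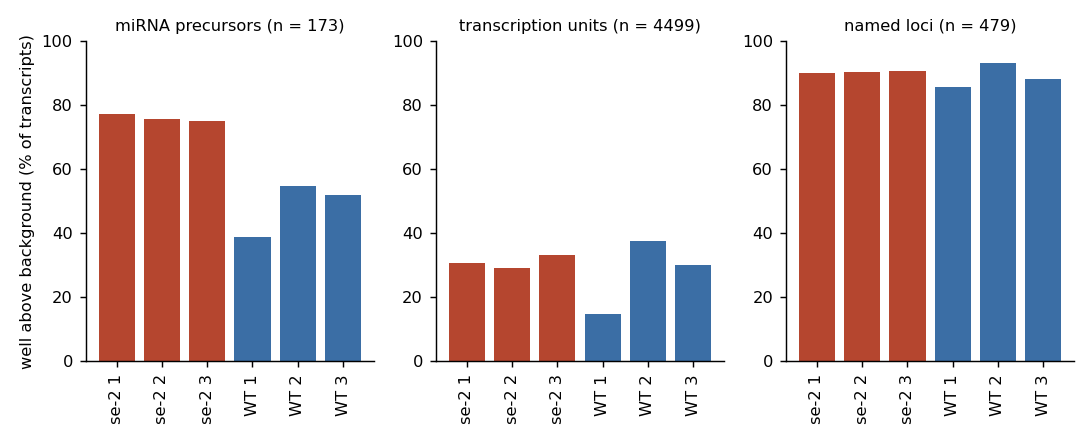
Share of transcripts with a probe well above background (%, vertical axis from 0 to 100) on each se-2 array (red) and WT array (blue), for each of the 3 classes. Precursors were detected at 75.1% to 77.5% on se-2 arrays and 38.7% to 54.9% on WT arrays, while the ranges of transcription units and named loci overlap between the genotypes.

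MIR172b, MIR390b, MIR156c, MIR319a, MIR156a and MIR396b had the highest fitted changes among called precursors. Where no WT array detected a precursor only a lower bound can be given, so their order is not settled. MIR172b, whose miRNA acts on AP2-like floral repressor genes, had levels of 2.62, 2.59 and 2.62 on the se-2 arrays, against -5.48, -7.38 and -6.46 on the WT arrays. It was well above background on no WT array, and its level in se-2 was at least 377-fold higher (adjusted p = 0.000292, limma). MIR390b, whose miRNA starts the making of TAS3 trans-acting siRNAs, had levels of -0.92, -0.88 and -0.93 in se-2, against -6.58, -6.96 and -7.75 in WT. It also stayed undetected on every WT array, and the se-2 level was at least 34.0-fold higher (adjusted p = 0.000332). MIR319a, whose miRNA acts on TCP genes of leaf growth, had levels of -0.47, -0.40 and -0.56 in se-2, against -5.10, -6.82 and -7.07 in WT. Its fold was at least 40.6 (adjusted p = 0.00216), again against WT arrays that did not detect it.

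The MIR156 genes make the miRNA that holds plants in the juvenile phase through SPL transcription factors. MIR156c had levels of 3.70, 3.61 and 3.68 in se-2, against -2.09, -2.01 and -2.51 in WT, and was detected on every array. Its change was 5.87 ± 0.38 (SE, n = 3), or 58.3-fold (adjusted p = 0.000245, limma). MIR156a had levels of 3.19, 3.09 and 3.11 in se-2, against -2.61, -2.0 and -2.87 in WT, a change of 5.63 ± 0.42, or 49.4-fold. In both, the lowest se-2 array lay more than 5 log2 units above the highest WT array. MIR396b, whose miRNA acts on GRF growth factor genes, had levels of -1.11, -1.14 and -1.24 in se-2, against -7.69, -5.46 and -6.32 in WT, with 1 WT array well above background. Its fitted change was 5.33 ± 0.74 (adjusted p = 0.00371), and its WT arrays spread far more than its se-2 arrays. All 6 of these rises kept their direction and call under every alternative in which they were tested, but not their size. The lowest changes over these alternatives were 4.73 for MIR172b, 1.45 for MIR390b and 1.66 for MIR319a. They were 5.02 for MIR156c, 4.47 for MIR156a and 1.26 for MIR396b. The lower bounds given for MIR172b, MIR390b and MIR319a thus hold for the main processing only.

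**Figure D3:**
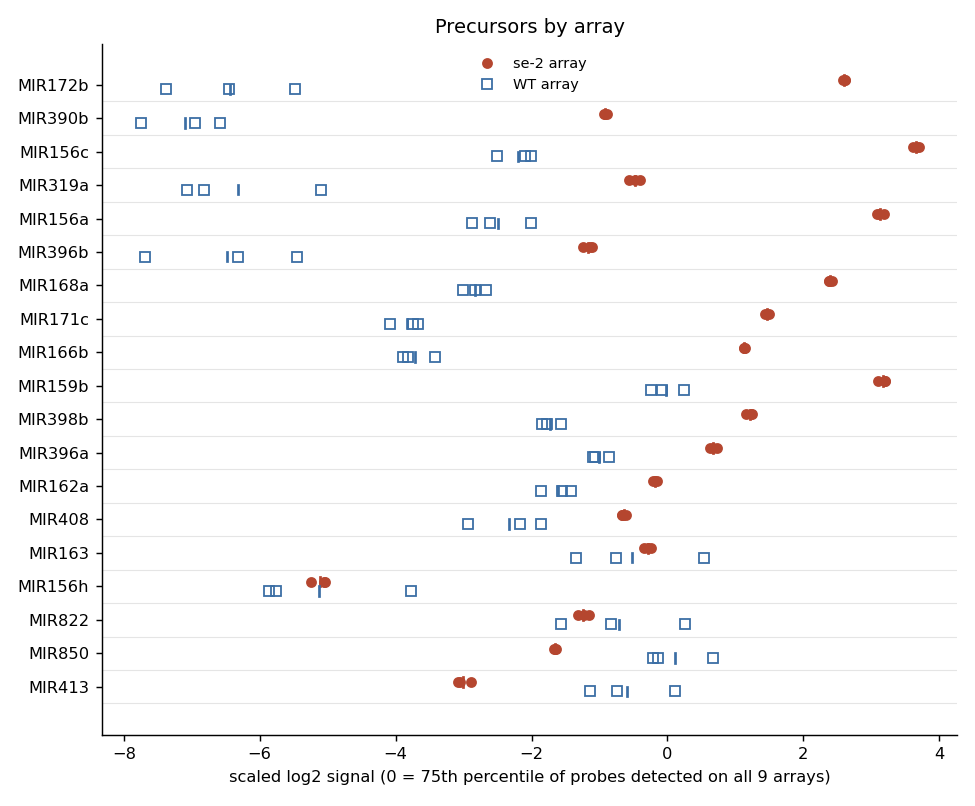
Scaled log2 signal (horizontal axis) of 19 precursors on each se-2 array (filled circles) and each WT array (open squares), with short vertical bars for the genotype means. The 6 with the highest fitted change are on top, where all se-2 arrays lie to the right of all WT arrays; MIR850 and MIR413 at the bottom show the opposite order, and MIR163, MIR156h and MIR822 overlap.

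Conserved miRNA families here are a chosen list, meant as those found in many flowering plants, and the range of each family was not checked. Their precursors made up 59 of the 67 that rose. Of 90 on the array 80 were tested and 21 of these were not called. Their median change was 3.61, which is 12.2-fold, and by limma 0 fell. With normexp the median was 1.04 under percentile scaling, with 47 higher and 5 lower, and 1.51 under quantile normalization, with 52 higher and 0 lower. Of the 80, 44 passed the filter only through the se-2 arrays. In the 36 well above background on all se-2 and WT arrays 31 rose, 0 fell, and the median change was 3.62. Of the 83 precursors of other families 46 were tested: 8 rose, 1 fell and 37 were not called. Their median change was 0.87, which is 1.83-fold, and -0.54 with normexp background correction and percentile scaling. Of the 46, 17 passed the filter only through the se-2 arrays. In the 29 well above background on all se-2 and WT arrays 5 rose, 1 fell, and the median change was 0.21. The medians of the family groups differed by 2.74, and by 2.83, 2.68 and 2.36 against the WT replicates 1, 2 and 3 taken singly. This is a description of the members, since the lists are not samples. At least 1 member rose in 22 of the 25 conserved families tested, and all tested members rose in 12 of these. The families without a call at the brightest probe were MIR170, MIR391 and MIR408, each with 1 tested member. With that same correction and scaling, the family medians of MIR170, MIR391, MIR399 and MIR827 lay below 0, and under the other scalings all 25 lay above it.

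All 4 MIR157 precursors, which share their SPL targets with MIR156, rose, by 2.56 to 3.68. All 6 tested MIR166 precursors, together with MIR165b regulators of the HD-ZIP III genes of leaf polarity, rose, 5 of them by 3.90 to 4.84 and MIR166g, detected on no WT array, by at least 6.29-fold. MIR166b had levels of 1.13, 1.12 and 1.14 in se-2, against -3.82, -3.42 and -3.89 in WT, a change of 4.84 ± 0.35 (adjusted p = 0.000292, limma), and the genotypes did not overlap. All 3 MIR171 precursors, whose miRNA acts on GRAS genes of the HAM group, rose. MIR171c had the highest change among their brightest probes, 5.30 ± 0.35. Another MIR171a probe, detected on no WT array, had a fitted change of 6.10 ± 0.52, so the order of these precursors is not settled. Of the 7 tested MIR156 precursors 4 rose, MIR156a to MIR156d, and MIR156e, MIR156g and MIR156h did not pass, with changes of 0.80, 0.49 and 0.02. MIR156h overlapped between the genotypes, at -5.04, -5.06 and -5.25 in se-2 against -5.86, -5.77 and -3.78 in WT. MIR159a and MIR159b, whose miRNA silences GAMYB-like genes, rose by 3.99 and 3.19, while MIR159c, detected on 1 WT array, had a change of 0.81 ± 2.27.

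MIR160a, a regulator of ARF10, ARF16 and ARF17, rose by 4.62 ± 0.46, MIR160c had a change of 1.54, and MIR160b, detected on no WT array, had a bound of at least 3.33-fold, neither of them called. MIR164b, whose miRNA acts on CUC genes and NAC1, rose by 4.80 ± 0.46, while MIR164c had a change of 3.37 and MIR164a, detected on no WT array, was bounded at 1.66-fold or more, both without a call. MIR393b, a regulator of the auxin receptor genes, rose by 3.60 ± 0.61, and MIR393a had a change of 1.92 ± 2.29. MIR167a, a regulator of ARF6 and ARF8, rose by 4.13 ± 0.37 (adjusted p = 0.000526), MIR167d had a change of 2.01 ± 0.61 without a call, and MIR167b had 0.49 ± 0.44. The MIR167 genes were probed a second time under their locus names, which gives a check of their order. The locus AT3G22886 of MIR167a changed by 3.67 ± 0.38 (adjusted p = 0.00102), that of MIR167d by 2.37 ± 0.87 and that of MIR167b by 0.57 ± 0.40, neither called. Both probe sets thus placed MIR167a first and MIR167b last, and the locus of MIR167c, which had no probe under a precursor name, had 1.0 ± 0.66.

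MIR168a, whose miRNA acts on AGO1, had levels of 2.38, 2.38 and 2.42 in se-2, against -2.67, -2.83 and -3.01 in WT. Its change was 5.23 ± 0.33, or 37.5-fold, and that of MIR168b was 4.79 ± 0.40. MIR162a and MIR162b, whose miRNA acts on DCL1, had smaller rises of 1.42 ± 0.34 and 1.68 ± 0.36 (adjusted p = 0.0467 and 0.0304, limma). Of these 2, 0 were called with median scaling, with quantile normalization or from the authors' deposited table. MIR403, whose miRNA acts on AGO2 and which is no member of the conserved list, had levels of -0.68, -0.71 and -0.71 in se-2, against -4.67, -5.74 and -5.06 in WT, a rise of 4.46 ± 0.45. In MIR168a, MIR168b, MIR162a, MIR162b and MIR403 no WT array reached any se-2 array.

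Among families tied to nutrients, 10 of 13 tested MIR169 precursors, regulators of NF-YA genes, rose, all 6 of the MIR169i to MIR169n group among them, by 3.37 to 4.48, with MIR169m read on 2 of the 3 se-2 arrays. Members of that group are near copies of each other, and whether probes cross-hybridise between them was not tested. All 3 MIR398 precursors, whose miRNA acts on copper superoxide dismutase genes, rose, by 2.94 to 3.80. MIR408, another copper-responsive precursor, had levels of -0.61, -0.67 and -0.66 in se-2, against -1.86, -2.94 and -2.18 in WT, and its change of 1.68 ± 0.44 did not pass (adjusted p = 0.0651). A dimmer MIR408 probe changed by 2.36 ± 0.50 and passed (adjusted p = 0.0275, limma), while the remaining probe, with 1.61, did not. Of the 6 MIR399 precursors, whose miRNA acts on the phosphate regulator gene PHO2, 4 rose, and MIR827, also phosphate-responsive, rose, with a level at least 6.56-fold higher in se-2 than in WT. MIR395c and MIR395f, of a family that acts on sulfate assimilation genes, rose and were at least 8.54-fold and 1.59-fold higher, against WT arrays that did not detect them. With normexp and percentile scaling, 0 precursors of MIR395, MIR399 and MIR827 were called higher, and 1 of MIR395 was called lower. With normexp and quantile normalization, 2 of MIR395, 2 of MIR399 and 0 of MIR827 were called higher. All 3 MIR398 precursors kept their calls under both.

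**Figure D4:**
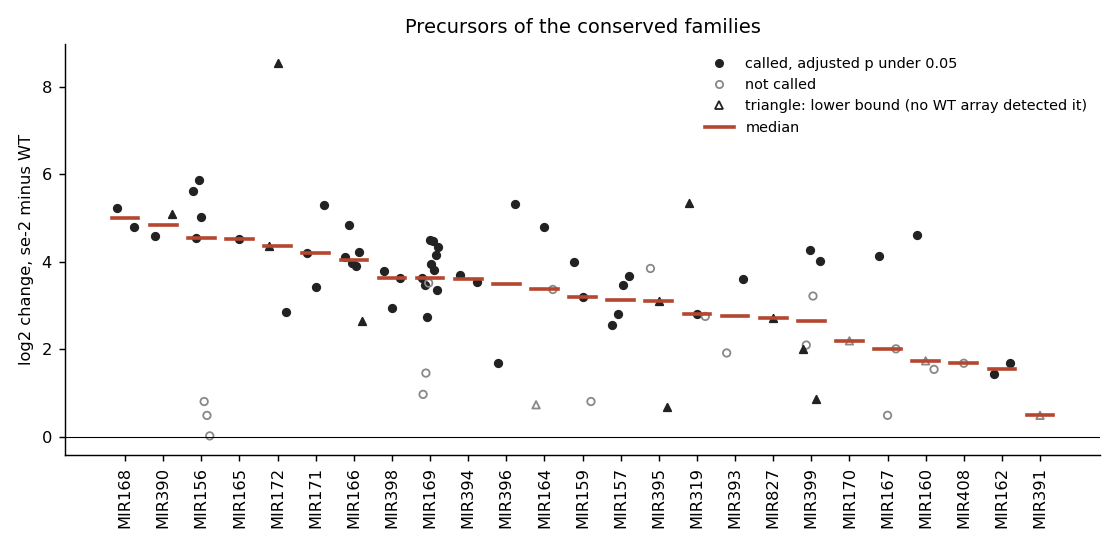
Change of each tested precursor of the 25 conserved families in se-2 minus WT (log2, vertical axis), with called precursors filled, others open and the family median as a red line. Precursors detected on no WT array are triangles at their lower bounds, which enter the medians. Families run from MIR168, with a median of 5.01, to MIR391, whose 1 precursor has a bound of 0.49.

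In the other families the calls fell on MIR158a, MIR161, MIR403, MIR825, MIR843, MIR844, MIR861 and MIR2111a. With normexp under either scaling, 0 precursors of the MIR825, MIR843, MIR844, MIR861 and MIR2111 families were called higher. In the MIR2111 family 1 was called lower with normexp and percentile scaling. Quantile normalization and the authors' table each gave 0 higher for MIR161, MIR825, MIR844 and MIR861. MIR158a, a Brassicaceae precursor, had levels of 1.52, 1.60 and 1.55 in se-2, against -2.44, -2.85 and -1.79 in WT, a rise of 3.92 ± 0.44 (adjusted p = 0.00157, limma). MIR161, whose miRNAs act on genes of pentatricopeptide repeat proteins, rose by 2.04 ± 0.44. MIR163, an unusually long hairpin, overlapped between the genotypes, at -0.28, -0.35 and -0.25 in se-2 against 0.54, -0.76 and -1.35 in WT, and its change of 0.23 ± 0.68 did not pass. MIR173, the trigger of TAS1 and TAS2 siRNAs, was detected on no WT array and was bounded at 3.85-fold or more, without a call (adjusted p = 0.0664).

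The only precursor that fell was MIR850. Its levels were -1.64, -1.65 and -1.67 in se-2, against -0.14, 0.67 and -0.21 in WT, and the genotypes did not overlap. Its change of -1.76 ± 0.42 passed narrowly (adjusted p = 0.0481, limma), and the call ended under 10 of 21 alternatives. MIR413 lay lower still, at -2.90, -3.09 and -3.05 in se-2 against -0.75, -1.14 and 0.11 in WT, and its change of -2.42 ± 0.66 missed the threshold (adjusted p = 0.0788). MIR822 and MIR839, young hairpins that are cut by DCL4 rather than DCL1, had changes of -0.53 ± 0.66 and -0.50 ± 0.57, with overlapping genotypes. Probes of a precursor mostly agreed in sign: of 74 precursors with several tested probes 6 had changes of opposite sign and 0 had calls both ways. MIR846 was among the 6, with -1.17 at its brightest probe and with 3.05 and 1.69 at 2 probes detected on 0 and 1 WT arrays.

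Transcription units moved in both directions and rarely passed the test. Of 4499 on the array 1168 were tested: 19 rose, 12 fell and 1137 did not pass. Without WT replicate 2 the counts were 48 and 32, and without WT replicate 3 they were 43 and 39. The highest rise was that of AT2TU054560, with levels of 0.03, -0.05 and -0.11 in se-2, against -5.65, -5.64 and -4.92 in WT. Its change was 5.36 ± 0.42, or 41.0-fold (adjusted p = 0.00033, limma), with 2 WT arrays well above background. AT5TU075750 was detected on no WT array and had a level at least 13.2-fold higher in se-2 (adjusted p = 0.00125), and AT5TU034750 at least 4.27-fold higher (adjusted p = 0.0238). The call of AT5TU075750 ended with normexp and percentile scaling, and its lowest change over the alternatives was 0.47. The call of AT5TU034750 ended under 2 alternatives, and its change was -0.37 with normexp and percentile scaling. AT1TU056980, AT5TU072360 and AT4TU041990 were detected on every array and rose by 4.64 ± 0.80, 3.21 ± 0.48 and 3.01 ± 0.58. The call of AT1TU056980 ended with the replicate block, and that of AT4TU041990 under 3 alternatives.

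The deepest fall among transcription units was that of AT5TU077800, with levels of -5.92, -6.08 and -6.04 in se-2, against -1.16, -1.80 and -0.56 in WT. Its change of -4.84 ± 0.67 was a 28.7-fold lower level in se-2 (adjusted p = 0.00362, limma), and all se-2 arrays lay below all WT arrays. AT1TU076550, AT1TU058220, AT3TU007380, AT1TU056640 and AT3TU059670 fell by 3.55, 3.31, 3.11, 2.65 and 2.51 on the log2 scale. Of these, AT3TU059670 had the tightest WT arrays, at -2.56, -2.48 and -2.58 in se-2 against -0.15, -0.06 and 0.12 in WT. The calls of AT1TU076550 and AT1TU056640 ended under 12 alternatives each, that of AT1TU058220 under 8 and that of AT3TU007380 under 4. That of AT3TU059670 ended with the percentile over all probes. The 513 units well above background on all se-2 and WT arrays had a median change of -0.36, with 11 higher and 12 lower. Probes of a unit differed in the sign of their change in 109 of 358 units with several tested probes, so a unit's direction rests on its brightest probe.

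Annotated long noncoding RNA (lncRNA) loci had few calls. Of 224 transcripts 201 were tested: 2 rose, 3 fell and 196 were not called. Their median change was -0.07. All 3 se-2 arrays lay below all 3 WT arrays for 74 of the 201, against 26.5% of all tested transcripts. They lay above for 38, against 23.0%. Probes differed in the sign of their change in 52 of 187 lncRNA transcripts with several tested probes. AT5G15845.1, which lies between AT5G15843 and the CONSTANS-like gene COL1 in the RefSeq gene order, had levels of 0.98, 0.92 and 0.93 in se-2, against -2.96, -3.15 and -2.20 in WT. It rose by 3.71 ± 0.44, or 13.1-fold (adjusted p = 0.00187, limma). AT2G26692.1 rose by 1.84 ± 0.40, a call that ended under 10 alternatives and changed sign under 1 more. AT3G22121.1, between the cell-wall protein gene CWLP and AT3G22133, had levels of 0.16, 0.24 and 0.31 in se-2, against 3.47, 3.56 and 3.08 in WT. It fell by 3.13 on the log2 scale, with an SE of 0.50, an 8.76-fold lower level in se-2 (adjusted p = 0.00778). The versions AT3G29644.1 and AT3G29644.2 of 1 locus fell by 2.70 and 3.14, an 8.84-fold lower level for the second. The call of AT3G29644.1 ended with the 6 arrays of se-2 and WT alone.

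Other noncoding RNA loci also had few calls, with 3 of 129 tested transcripts higher, 4 lower and a median change of -0.29. All se-2 arrays lay below all WT arrays for 51 of the 129, against 26.5% of all tested transcripts. They lay above for 22, against 23.0%. Probes differed in sign in 30 of 121 such transcripts with several tested probes. AT2G07042.1, between the receptor kinase gene PRK2A and the cycloartenol synthase gene CAS1, had levels of 2.03, 1.94 and 1.92 in se-2, against -3.18, -1.92 and -1.84 in WT. Its rise of 4.28 ± 0.54, or 19.4-fold (adjusted p = 0.0024, limma), was the highest of any noncoding locus. AT4G30975.1, next to MIR156b in the gene order, had levels of 1.18, 1.36 and 1.26 in se-2, against -1.03, -0.88 and -0.21 in WT, a rise of 1.97 ± 0.45 whose call ended under 7 alternatives, median scaling among them. It was the only transcript that rose among the 5 tested noncoding transcripts, of 4 loci, that lie next to a MIR gene. Their median change was -0.56, against -0.17 in the 325 others, a comparison made after values were seen. AT5G23155.1, next to the floral regulator gene HUA2, rose by 1.52 ± 0.35, and its call also ended under 7 alternatives. AT1G58590.2, AT1G67105.1, AT4G08035.1 and AT1G10682.1 fell by 2.64, 2.47, 2.09 and 2.06 on the log2 scale, and these calls ended under 3, 4, 4 and 5 alternatives. AT1G67105.1, between LBD40 and the cytokinin hydroxylase gene CYP735A2, had levels of -1.40, -1.50 and -1.44 in se-2, against 0.36, 1.25 and 1.47 in WT. Without WT replicate 3, 23 of the named-locus transcripts were higher and 38 lower, against 8 and 10 with all arrays, and without WT replicate 2 they were 29 and 30.

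Protein-coding genes on this array are few, and 2 of the 87 tested transcripts rose, 3 fell and 82 did not pass. LHY, a morning transcription factor of the circadian clock, had levels of 3.95, 4.11 and 4.03 in se-2, against -1.16, -0.17 and -2.51 in WT. It rose by 5.31 ± 0.76, or 39.7-fold (adjusted p = 0.00422, limma), and the call held under all 21 alternatives. Of the 12 listed clock genes 7 were tested, and LHY was the only one called. CCA1, its close partner, had levels of 2.63, 2.54 and 2.59 in se-2, against -2.48, -0.12 and -4.30 in WT. The genotypes did not overlap, but the WT arrays spread over more than 4 log2 units and the change of 4.89 ± 1.23 did not pass (adjusted p = 0.0588). PRR9, the earliest of the pseudo-response regulators in the day, had a change of 3.46 ± 1.16, PRR7 had 1.44 ± 1.05 and PRR5 had 0.80 ± 1.02, none of them called. TOC1 and PRR3, evening members of the same family, had changes of -1.37 ± 0.36 and -1.32 ± 0.44 (adjusted p = 0.0699 and 0.149), with all se-2 arrays below all WT arrays. In WT, replicate 3 was the lowest and replicate 2 the highest for LHY, CCA1, PRR9, PRR7 and PRR5. The labels give long days and no hour of harvest, and the part of the hour in these values was not tested.

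**Figure D5:**
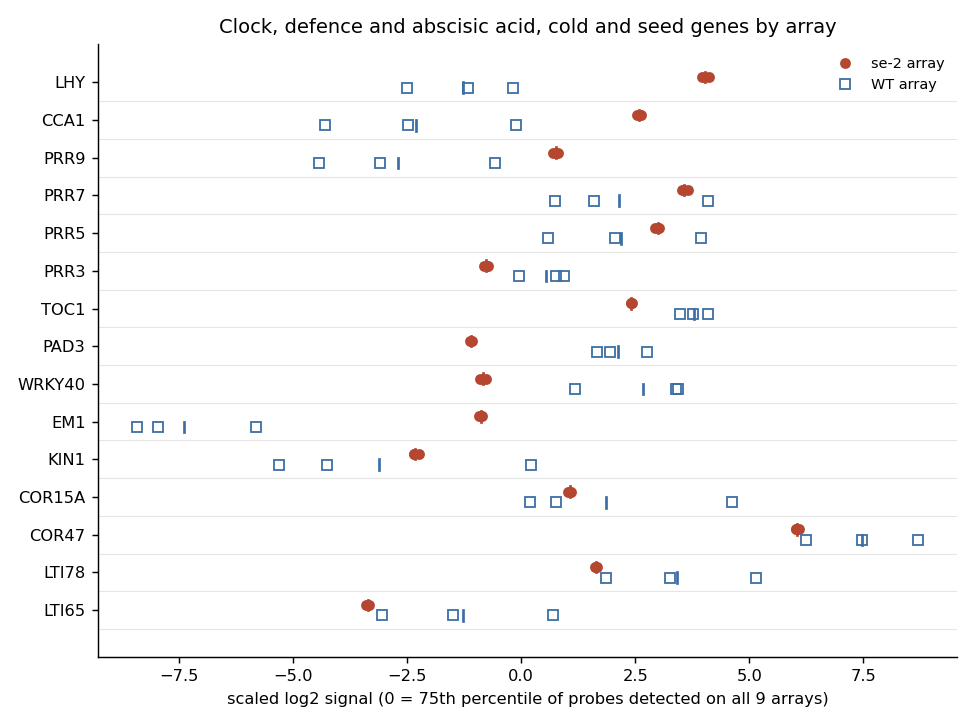
Scaled log2 signal (horizontal axis) of the tested clock genes, defence genes and abscisic acid, cold and seed genes on each se-2 array (filled circles) and each WT array (open squares), with short vertical bars for the genotype means. The se-2 arrays lie close together for every gene, while the WT arrays spread widely for CCA1, PRR9, KIN1, COR15A and LTI65.

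Both defence genes on the array fell. PAD3, the last enzyme of camalexin synthesis, had levels of -1.07, -1.10 and -1.12 in se-2, against 2.75, 1.67 and 1.94 in WT. Its change was -3.22 ± 0.51, a 9.29-fold lower level in se-2 (adjusted p = 0.00746, limma), and the call held under all 21 alternatives. WRKY40, a stress-induced transcription factor gene, had levels of -0.85, -0.91 and -0.78 in se-2, against 3.44, 1.17 and 3.39 in WT. It was 11.4-fold lower in se-2 (adjusted p = 0.0402), and this call ended under 10 alternatives. The third gene that fell was FHL, a helper of phytochrome A in entering the nucleus, with levels of -3.33, -3.51 and -3.40 in se-2, against -1.84, -1.0 and -1.15 in WT. Its change was -2.08 ± 0.48 (adjusted p = 0.039), and its call also ended under 10 alternatives.

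EM1, a late embryogenesis abundant protein gene of seeds, was the other gene that rose. Its levels were -0.87, -0.92 and -0.87 in se-2, against -5.82, -8.41 and -7.96 in WT. No WT array detected it, and the se-2 level was at least 34.5-fold higher (adjusted p = 0.00945, limma). The replicate block ended the call, and the lowest change of EM1 over the alternatives was 1.52. EM6, a listed seed gene with probes on the array, was not tested, since none was well above background on every array of a genotype. FUS3, the other tested seed marker and an embryo regulator, had a change of -0.38 ± 0.66. Of the cold and abscisic acid genes, LTI65, LTI78 and COR47 had changes of -2.07 ± 1.21, -1.78 ± 0.99 and -1.42 ± 0.77, COR15A had -0.80 ± 1.40 and KIN1 had 0.80 ± 1.80, and 0 of these 5 were called by limma or had an unadjusted p under 0.05. WT replicate 1 had the highest level of all 6 arrays in each of the 5. The array held no probe for the listed markers of leaf, root, floral organs or housekeeping, so the makeup of the seedlings was not checked.

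By limma 0 of the 7 tested small RNA silencing genes and 0 of the 3 tested miRNA target genes were called. DCL1, which cuts miRNA precursors and is itself a target of miR162, had levels of 2.80, 2.79 and 2.79 in se-2, against 2.47, 2.20 and 2.56 in WT. The genotypes did not overlap, and its change of 0.38 ± 0.32 did not pass (adjusted p = 0.665, limma). AGO2, a target of miR403, had 1.93 ± 0.04 in se-2 and 0.42 ± 0.76 in WT (SD, n = 3 each), a change of 1.51 ± 0.55, or 2.85-fold, without a call (adjusted p = 0.196, and 0.00759 by limma without the slide in the model). All se-2 arrays lay above all WT arrays for AGO2, the only gene of the silencing list with an unadjusted p under 0.05. The Dicer genes DCL2, DCL3 and DCL4 had changes of 0.60, -0.21 and -0.01, and RDR2, NRPD1A and NRPD1B (NRPE1), of the RNA-directed DNA methylation pathway, had -0.24, -0.27 and -0.17. TAS4, a source of trans-acting siRNAs, had a change of 1.23 ± 0.79. The miRNA targets NAC1 and TIR1, both dim, had 1.01 ± 0.83 and -0.74 ± 0.68. On the chosen list of 8 light signalling genes, which does not hold FHL, 0 were called by limma, and 1, PIF3, had an unadjusted p under 0.05. PIF3 had the lowest change, -1.26 ± 0.43 (adjusted p = 0.153), PIF4 the highest, 1.21 ± 1.02, and PHYA, PHYB, HY5, COP1, FHY1 and HFR1 lay between -0.33 and 0.45.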

How the data were processed

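RNA of 3 seedling samples per genotype was labelled with Cy3 from 0.5 µg of total RNA by linear amplification and read on 1 array each, per the labels' protocols. Spot intensities in the deposited scanner files were already background-subtracted and detrended within the array by Agilent Feature Extraction, per the file headers. Version 10.7.3.1 read all se-2 arrays and WT replicate 3, whose protocol differed, and version 10.5.1.1 read the remaining WT arrays. The authors' deposited value table holds log2 values, a scale read from the values, with column medians of 0.322 to 0.323, unknown centring and rank correlations with the scanner signal of 0.988 to 1. It served as an alternative.

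Control spots and outlier spots (2 to 27 on se-2 arrays, 0 to 39 on WT arrays) were left out, and no spot was saturated. The log2 signal was scaled by the 75th percentile among the 1835 probes that all 9 arrays detected (well above background). The 3103 probes detected throughout at least 1 genotype were fitted over all 9 arrays with limma 3.58.1 (lmFit, duplicateCorrelation, eBayes) in R 4.3.3. The slide was a random block with a consensus correlation of 0.948, and the script was tested on simulated data. A transcript is represented by its brightest tested probe. Where no array of WT detected a probe, its fold is a bound under the main processing. This bound sets the se-2 mean against the WT mean. There a WT array enters with its lowest detected signal, or with the probe's own if that is higher. The number of arrays limits the precision, and intensities carry no depth.

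Named transcripts were, per class, up to 6 of the largest rises and falls among called transcripts whose genotypes did not overlap, precursors that fell, 4 conserved precursors with the smallest change, and tested members of gene lists; the other precursors were named by family. The members, lists and rules were chosen with earlier results of these data known. Samples were listed as biological replicates, and their numbers did not pair them: same-numbered arrays had deviations that correlated at -0.016, -0.034 and -0.048. Symbols, classes and gene order came from a RefSeq table of another build than the array's, so no coordinates are given; 400 of 405 loci matched. Hairpin length, base composition and folding energy were not analysed here. The listed exosome genes had no probe. Python 3.11.15 with matplotlib 3.10.9 drew the figures.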

Additional observations from a re-analysis of the deposited data

How the results depend on the processing

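With all arrays and the slide as a block, 94 transcripts were higher and 23 lower in se-2, the precursors counted 67 and 1, the transcription units 19 and 12 and the named loci 8 and 10. Leaving out 1 array gave 72 to 155 higher and 12 to 79 lower, 52 to 78 and 0 to 2 precursors, 15 to 48 and 4 to 39 units, 5 to 29 and 8 to 38 named loci, and 24 to 38 precursors detected in se-2 only. Without the slide in the model the counts were 310 and 341, with 4 precursors lower, 153 and 223 units and 62 and 114 named loci. The 6 arrays of se-2 and WT alone gave 61 and 6, with 0 precursors lower, 10 and 3 units and 5 and 3 loci; the same without the slide, an alternative chosen after seeing the data, gave 231 and 231, 3 precursors lower, 99 and 153 units and 40 and 75 loci. With the replicate block, whose numbers do not pair the arrays, 51 were higher and 8 lower, with 42 and 0 precursors, 5 and 3 units and 4 and 5 loci. All 67 precursors that rose were called again without the slide, 45 with the 6 arrays and 42 with the replicate block.

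The scaling moved the median change of all transcripts to 0.95 with the percentile over all probes, 0.25 with quantile normalization or the authors' table and -0.81 with normexp and percentile scaling, against 0.01 here. The percentile over all probes gave 182 and 6, with 0 precursors lower, 58 and 2 units and 37 and 4 loci. Normexp with percentile scaling, run on median spot signals, gave 863 lower, 16 of them precursors, 735 units and 112 loci, with 25 loci higher; with quantile normalization it gave 42 lower, 2 precursors lower and 20 and 22 loci. Quantile normalization alone gave 7 units lower, and the authors' table and the mean of a transcript's probes gave 0 precursors lower. With no filter on dim probes, 0 precursors were lower, units were 12 and 28 and loci 5 and 5. Detection on all 9 arrays, which tests fewer probes, gave 55 higher, 36 of them precursors, and 10 and 7 units. A trended prior variance gave 40 lower, 2 precursors lower and 14 and 23 loci. Precursors exceeded units by 2.78, and by 3.04 in the authors' table, 2.33 with detection on all 9 arrays, and 1.04 and 0.74 with normexp and percentile or quantile scaling. Conserved exceeded other families by 2.74, and by 2.35, 2.32, 2.28, 3.52 and 3.42 with the authors' table, the mean of probes, quantile normalization, no filter and detection on all 9 arrays, and by 1.58 and 1.33 with normexp. Among the 71 transcripts named by rank or gene list, signs turned with normexp and percentile scaling for AT5TU034750 (-0.37), AT2G26692.1 (-0.094), MIR156h (-0.86) and MIR156g (-0.85). Precursors outside these 71 turned as well. Among them were MIR827 (-0.085), MIR843 (-0.44), MIR861 (-0.32), MIR173 (-0.47) and MIR170 (-0.35), each the only tested member of its family. The cause of these differences was not tested.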
